A study of Sus scrofa with 12 samples.

Results

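The immediate early factors described here are the Fos and Jun proteins FOS, FOSB, FOSL1, FOSL2, JUN and JUND, the stress factor ATF3 and the growth factor-induced regulator MYC, measured in the Semimembranosus muscle of pigs. A gene was a member when its symbol had an Ensembl gene identifier in the pig gene name table and that identifier had counts. This held for 7 of the 8 symbols. JUND had no identifier in the name table, so it has no value here. The 7 members stand among 25880 genes listed in the count table, and all 7 were among the 14262 genes with enough counts to be tested.

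Fos and Jun proteins pair through their leucine zippers to form the dimers known as AP-1, which bind short DNA sites and turn on genes of growth, wound repair and inflammation. The genes FOS, FOSB and JUN are transcribed within minutes of a stimulus, without new protein synthesis, and the messengers of FOS and FOSB are short-lived. ATF3 is a related leucine zipper protein of the stress response, and MYC is a helix-loop-helix leucine zipper protein that raises ribosome production and growth. In skeletal muscle these genes are known to respond to contraction, stretch, injury and shortage of oxygen.

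The study compared 6 Italian Large White pigs with high intramuscular fat content (high IMF group, pigs 1 to 6) with 6 of the same breed with low content (low IMF group, pigs 7 to 12). The pigs were reared under like conditions on the same feed, were from 229 to 249 days old by the labels and weighed between 150 and 160 kg, and each group held 3 females and 3 castrated males by the labels. The muscle was taken in a commercial abattoir after slaughter and frozen at once, and no group is a treatment, so that fat content is an observed property of the pigs. The labels do not give the slaughter day or the sequencing lane of each pig, so that neither can be separated from the groups here. Each library is 1 pig, and pigs had from 131048805 to 178013997 counts, with a median of 144352007.

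The labelled sex went against the counts on Y chromosome genes in 6 pigs, of which 2 were in the high IMF group (pigs 3 and 5) and 4 in the low IMF group (pigs 7 to 10). Pigs fell on either side of a gap between 6 and 3734 such counts, and 3 pigs of each group lay above it. Whether the sex labels alone are affected, or also the match of count columns to pigs and with it the group of a pig, cannot be told apart here, so that high and low IMF are used as labelled. The log2FC of the members and the counts of the gene lists are therefore given with all 12 pigs and without these 6 pigs, which leaves 4 high IMF and 2 low IMF pigs. Of 11 skeletal muscle fibre markers, MYH1, MYH2, MYH4, MYH7, TTN and MB had no counts under their symbols, while the muscle actin ACTA1 had a mean of 19669 CPM. CPM are counts scaled to one fixed total per library, here after TMM scaling. As the tissue was taken whole, fewer cells of a type and less RNA per cell cannot be told apart.

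FOS and ATF3 had the highest levels of the 7 members, and the DNA before their starts is shown to place the known response elements. Both windows were read from the Sscrofa11.1 genome, the build the authors aligned to, and are written 5′ to 3′ on the strand of the gene. In the FOS window, chr7:98449040-98449339 on the plus strand, the capitals mark a CArG box, which is the site of serum response factor, then the core of the cyclic AMP response element on the opposite strand, the same core on the gene's strand and, at the end, the TATA box. The window ends 169 bases before the first coding base of the RefSeq record. In the ATF3 window, chr9:130785584-130785883 on the minus strand, which lies directly before 1 of its 4 RefSeq transcript starts, the capitals mark a core of the cyclic AMP response element on the opposite strand.
FOS: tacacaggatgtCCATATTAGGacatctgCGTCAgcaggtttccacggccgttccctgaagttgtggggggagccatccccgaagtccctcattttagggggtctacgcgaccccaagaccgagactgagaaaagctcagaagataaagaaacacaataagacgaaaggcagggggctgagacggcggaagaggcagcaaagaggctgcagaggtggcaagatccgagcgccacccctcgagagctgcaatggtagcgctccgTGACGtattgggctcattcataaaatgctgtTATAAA
ATF3: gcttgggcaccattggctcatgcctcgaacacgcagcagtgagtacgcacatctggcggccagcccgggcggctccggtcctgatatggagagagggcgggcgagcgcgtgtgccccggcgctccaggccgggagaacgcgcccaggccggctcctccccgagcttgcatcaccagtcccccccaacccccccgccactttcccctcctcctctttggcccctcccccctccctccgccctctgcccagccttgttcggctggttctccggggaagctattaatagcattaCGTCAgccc

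The letters searched, on both strands, were TGACGTCA for the cyclic AMP response element (CRE), TGACG for its core, TGACTCA or TGAGTCA for the AP-1 site, CACGTG for the E-box, TATAAA for the TATA box, and the CArG box by its consensus. The core lies within the full CRE, so that these matches overlap. Over 600 bases before each of 47441 RefSeq transcript starts, 3.11% of windows held a CArG box, 2.07% a CRE, 34.4% the core, 7.09% an AP-1 site, 12.2% an E-box and 23.0% a TATA box. The 8 symbols have 13 such windows in RefSeq. The CArG box was found before FOS and the full CRE before JUND, each in 1 of the 13 windows. The core was found in 6 windows, of FOS, FOSL1, FOSL2, JUND and ATF3, and a TATA box in 5, of FOS, FOSB, FOSL2 and ATF3. The E-box was found in 2 windows, both of ATF3, and 0 of the 13 held the AP-1 site. These 2 windows overlap and hold the same E-box, and the 2 ATF3 windows with the core likewise overlap and hold the same core. A match gives only the letters of a window and no binding.

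The levels of the 7 members spanned a wide range. Per kilobase of coding sequence, averaged over the 12 pigs, ATF3 had 819 ± 288 CPM (SD, n = 12) and FOS 293 ± 192 CPM. FOSL2 had 117 ± 30.4 CPM and JUN 86.3 ± 22.2 CPM on the same scale. MYC had 10.7 ± 7.64 CPM, FOSB 6.81 ± 2.32 CPM and FOSL1 4.03 ± 1.44 CPM. Neighbours in this order lay apart by more than the sum of their SDs for ATF3 and FOS and for JUN and MYC, and by less than it otherwise. Counts come from whole gene models, so untranslated exons are counted without adding to this length. Per kilobase of exon in RefSeq, FOS, whose record holds coding sequence alone, had 293 CPM and ATF3 279 CPM, JUN 71.8 CPM came before FOSL2 with 15.4 CPM, and FOSL1 with 1.92 CPM came before FOSB with 1.49 CPM. The order within these pairs therefore turns with the length used. By plain CPM, ATF3 ranked 130th and FOS 225th among the genes tested.

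**Figure D1:**
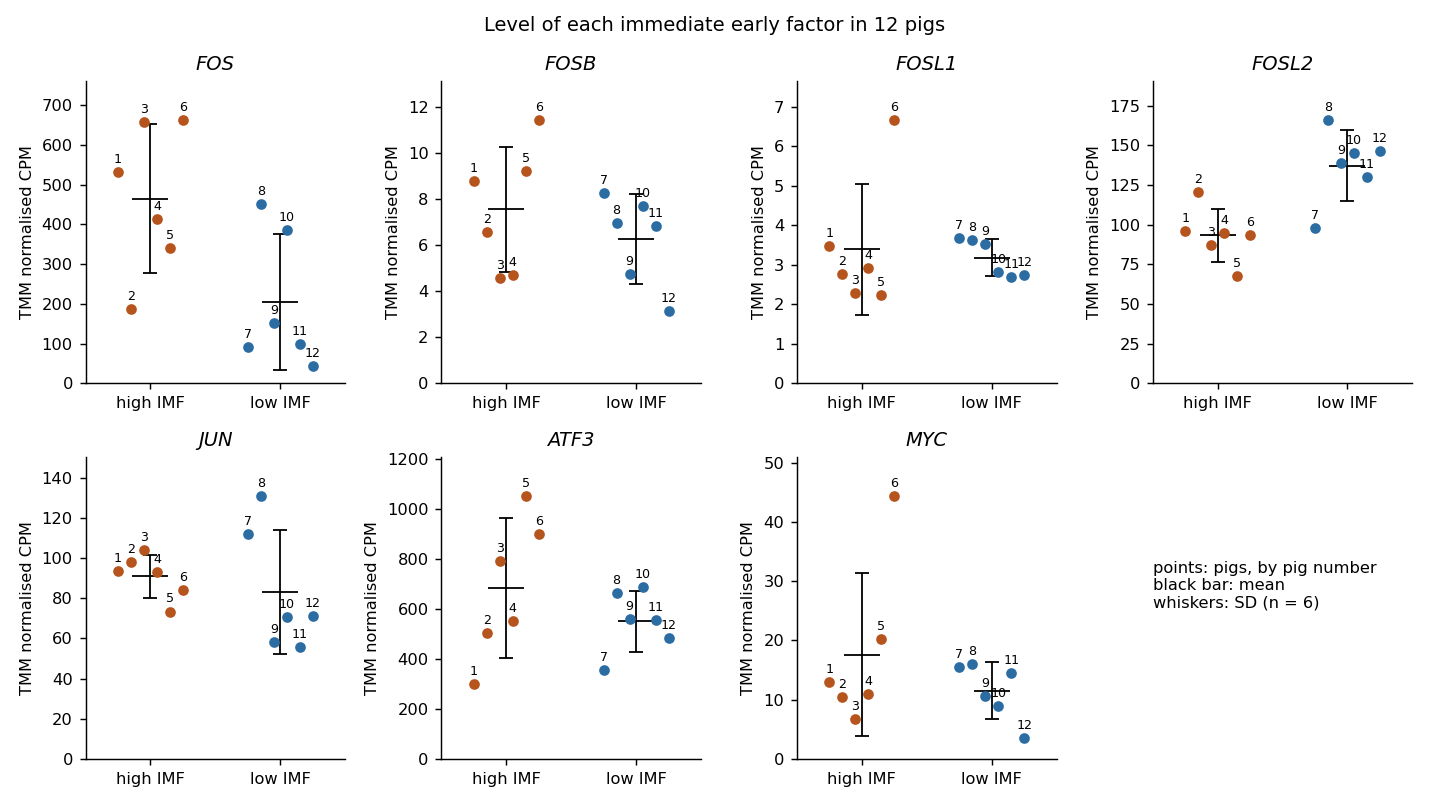
Level of each member in each pig, as TMM normalised CPM on the vertical axis (linear, from 0), with the high IMF pigs in orange and the low IMF pigs in blue, numbered by pig. The black bar is the mean of 6 pigs and the whiskers are the SD. FOS lay at 187 CPM or more in every high IMF pig and below that in 4 of the 6 low IMF pigs, while 5 of the 6 low IMF pigs had more FOSL2 than any high IMF pig.

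FOS, which dimerises with Jun proteins and is the classical immediate early gene, lies on chromosome 7 (98449508 to 98451971, plus strand, ENSSSCG00000002383). In the high IMF group its level was 531 CPM in pig 1, 187 in pig 2, 657 in pig 3, 413 in pig 4, 342 in pig 5 and 662 in pig 6. In the low IMF group it was 90.4 CPM in pig 7, 452 in pig 8, 152 in pig 9, 386 in pig 10, 97.6 in pig 11 and 44.1 in pig 12. All 6 high IMF pigs lay above the low IMF median, and 4 of the 6 low IMF pigs lay below every high IMF pig, but pigs 8 and 10 fell within the high IMF range. The means were 465 ± 187 CPM and 204 ± 171 CPM (SD, n = 6 each), and the highest pig had 15.0 times the level of the lowest. The log2FC, low over high IMF, was -1.19 ± 0.51 (SE), with a 95% interval from -2.29 to -0.09. It did not pass the adjustment over all genes in edgeR's quasi-likelihood test (adjusted p = 0.452), and the exact two-sided permutation test over pigs gave p = 0.0303. Without the 6 pigs of unmatched sex label the log2FC was -2.65 ± 0.58 (adjusted p = 0.998, edgeR). Over edgeR fits without 1 pig it ran from -1.58 without pig 8 to -0.97 without pig 12, with adjusted p from 0.283 to 0.694. With labelled age as a covariate it was -1.19 ± 0.58 (adjusted p = 0.521, edgeR). FOS varied between pigs within groups more than most genes, with a biological coefficient of variation of 0.593, a value that 8.34% of genes reached.

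FOSL2, also called FRA-2, which lacks the activation domain of FOS, lies on chromosome 3 (110820403 to 110842903, minus strand, ENSSSCG00000032527). Its level in the high IMF group was 95.7 CPM in pig 1, 120.4 in pig 2, 87.1 in pig 3, 94.6 in pig 4, 67.8 in pig 5 and 93.2 in pig 6. In the low IMF group it was 97.7 CPM in pig 7, 166 in pig 8, 139 in pig 9, 145 in pig 10, 130.1 in pig 11 and 146 in pig 12. The groups overlapped only through pigs 2 and 7, and the other 5 pigs of each group lay on separate sides. The means were 93.1 ± 16.9 CPM in the high and 137 ± 22.6 CPM in the low IMF group (SD, n = 6 each). The log2FC was 0.56 ± 0.14 (SE), a 1.47-fold higher level in the low IMF group, with a 95% interval from 0.25 to 0.87. The adjusted p over all genes was 0.342 in edgeR's quasi-likelihood test, and the exact two-sided permutation test over pigs gave p = 0.00433. Without the 6 pigs of unmatched sex label the log2FC was 0.46 ± 0.16 (adjusted p = 0.998, edgeR). In DESeq2's Wald test on all genes with a count, FOSL2 had an adjusted p of 0.0459 at a log2FC of 0.56, below the study's limit of 0.58 in size. When each pig was left out of that test in turn, the adjusted p ran from 0.00253 without pig 2 to 0.148 without pig 8, and 2 of the 12 fits, those without pig 2 (log2FC 0.65) and without pig 7 (log2FC 0.64, adjusted p = 0.00392), met both limits.

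FOS and FOSL2 thus lay on opposite sides of the group comparison. The ratio of FOS to FOSL2 counts within a pig, a measure chosen after the values were seen and given as a description, ran from 1.55 to 7.54 (median 5.29) in the high IMF pigs. In the low IMF pigs it ran from 0.301 to 2.73 (median 1.01). In 4 of the 6 low IMF pigs the ratio lay below every high IMF pig. FOS took from 59.0% to 87.5% of the summed CPM of the 4 Fos family genes in the high IMF pigs and from 22.5% to 72.0% in the low IMF pigs. The ratio and the shares are not corrected for length, and RefSeq gives 1143 exon bases for FOS and 7476 for FOSL2. They therefore compare pigs, and do not show which of the genes had more transcripts in a pig.

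FOSB and FOSL1 were the least abundant members. FOSB, whose protein is close to FOS (chromosome 6, 51836780 to 51844531, plus strand, ENSSSCG00000031616), ran from 4.56 to 11.4 CPM (median 7.68) in high IMF pigs and from 3.12 to 8.25 CPM (median 6.90) in low IMF pigs. Its groups overlapped widely, and the log2FC was -0.27 ± 0.27 (adjusted p = 0.756, edgeR). FOSL1, or FRA-1 (chromosome 2, 6430158 to 6436173, plus strand, ENSSSCG00000012967), ran from 2.24 to 6.66 CPM (median 2.84) in high IMF pigs and from 2.69 to 3.68 CPM (median 3.17) in low IMF pigs. Of the 12 pigs, pig 6 stood apart, since the next highest high IMF pig had 3.48 CPM. The log2FC of FOSL1 was -0.09 ± 0.25 (adjusted p = 0.926, edgeR) and turned to 0.22 ± 0.15 (adjusted p = 0.789, edgeR) without pig 6.

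JUN, the partner of Fos proteins and the core of AP-1 (chromosome 6, 153686425 to 153687635, plus strand, ENSSSCG00000031912), ran from 73.4 to 104 CPM (median 93.0) in high IMF pigs and from 55.7 to 131 CPM (median 70.8) in low IMF pigs. Its levels in the low IMF group fell into a high pair, pigs 7 and 8 with 112 and 131 CPM, and 4 pigs from 55.7 to 70.9 CPM that lay below every high IMF pig. The means were 90.9 ± 10.8 CPM and 83.0 ± 30.8 CPM (SD, n = 6 each), the log2FC was -0.13 ± 0.20 (adjusted p = 0.858, edgeR), and the exact permutation test gave p = 0.390. The other Jun genes gave no level, since JUND had no identifier and JUNB, which was not a member, was listed with 0 counts in all 12 pigs. At 0 counts, a limit of 3 counts corresponds to at most 0.0229 CPM in the pig with the fewest counts, for counting error only. A gene model to which no read could be assigned would also be listed at 0, and this was not tested, so that the 0 gives no level of JUNB.

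ATF3 (chromosome 9, 130772259 to 130829678, minus strand, ENSSSCG00000015595) ran from 298 to 1051 CPM (median 673) in high IMF pigs and from 357 to 686 CPM (median 557) in low IMF pigs. The low IMF pigs lay wholly within the high IMF range. Pigs 3, 5 and 6 of the high IMF group lay above every low IMF pig, and pig 1 below every one. The log2FC was -0.31 ± 0.26 (adjusted p = 0.706, edgeR), and it ran from -0.47 without pig 1 to -0.15 without pig 5.

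MYC (chromosome 4, 12455141 to 12460360, minus strand, ENSSSCG00000005965) ran from 6.80 to 44.3 CPM (median 11.9) in high IMF pigs and from 3.58 to 16.0 CPM (median 12.5) in low IMF pigs, so that the medians were nearly equal. The mean of the high IMF group, 17.6 ± 13.8 CPM against 11.5 ± 4.80 CPM (SD, n = 6 each), was carried by pig 6, with 44.3 CPM. The log2FC was -0.61 ± 0.44 (adjusted p = 0.652, edgeR) and -0.09 without pig 6. After FOS, MYC had the largest biological coefficient of variation of the members, 0.524.

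In edgeR's fit to all 12 pigs, 0 of the 7 members passed an adjusted p of 0.05 together with a log2FC of 0.58 in size, as did 0 genes (0%) of the 14262 tested. DESeq2's Wald test and limma-voom also gave 0 of the 7 members with all 12 pigs. At an unadjusted p at or under 0.05, FOS was higher in the high IMF group, as were 5.04% of all genes, and FOSL2 was higher in the low IMF group, as were 5.38%. Only 1 of the 7, FOSL2, was at or under that limit in edgeR with labelled age as a covariate, and likewise without pig 3, 6, 7, 9, 11 or 12. In DESeq2's Wald test, 1 of the 7, FOSL2, had an adjusted p at or under 0.05 whatever its size, as did 0.605% of the genes with an adjusted p. The groups did not overlap for 0 of the 7 members and for 0.659% of all genes. Each of FOS, FOSB, FOSL1, JUN, ATF3 and MYC had a log2FC below 0 with all 12 pigs, but for 5 of these 6 the interval included 0. Without the 6 pigs of unmatched sex label all 7 members had log2FC of the same sign as with 12 pigs, from -2.65 to 0.46, and 0 passed the adjustment in edgeR (adjusted p = 0.998 for each). These were -0.65 ± 0.43 for FOSB, -0.53 ± 0.39 for FOSL1, -0.53 ± 0.16 for JUN, -0.11 ± 0.38 for ATF3 and -1.11 ± 0.79 for MYC (SE). At an unadjusted p at or under 0.05 that fit had FOS and JUN higher in the high IMF group, as were 2.19% of all genes, and FOSL2 higher in the low IMF group, as were 1.86%.

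**Figure D2:**
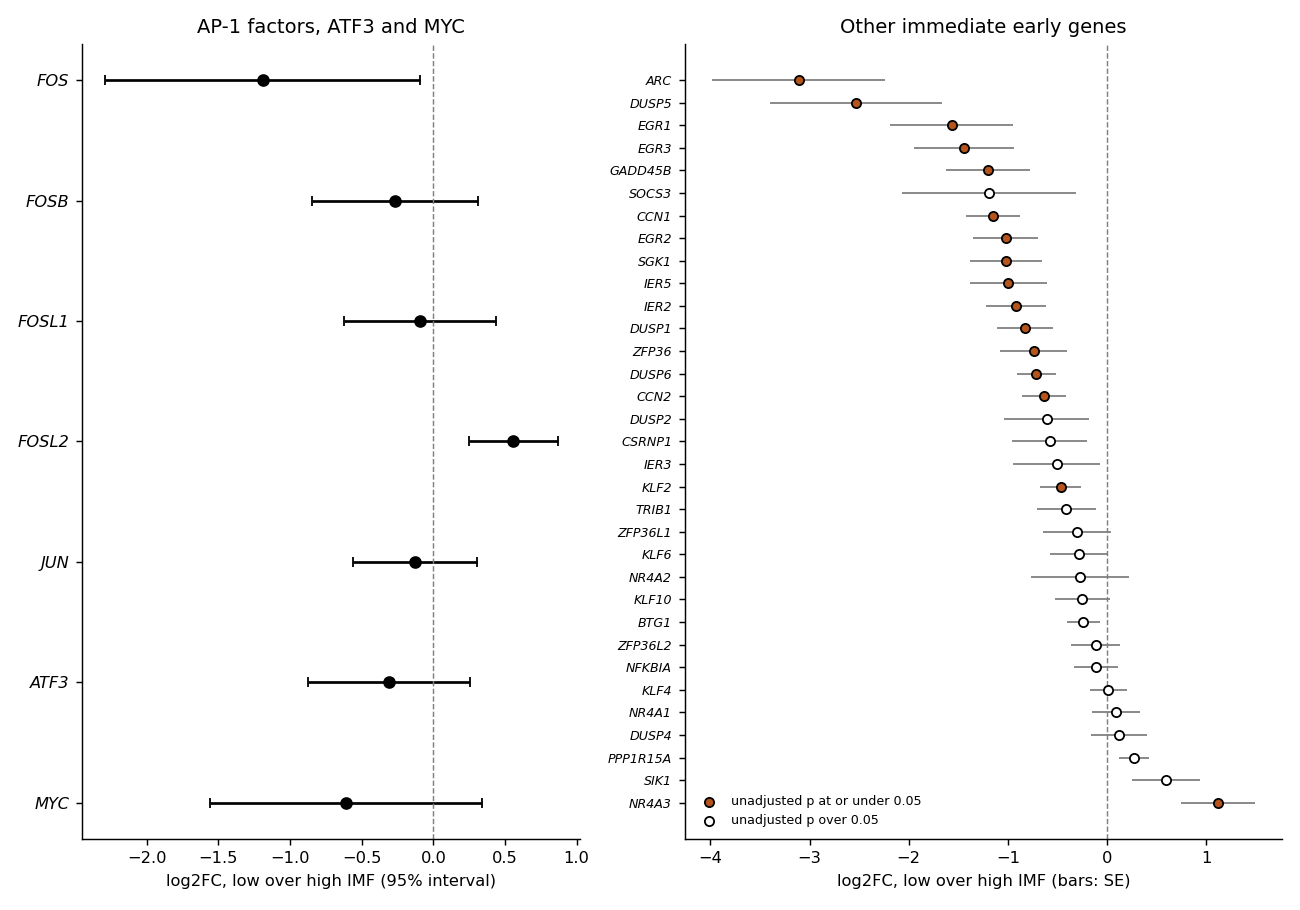
Log2FC, low over high IMF, on the horizontal axis from edgeR's quasi-likelihood fit to 12 pigs, for the 7 members with 95% intervals (left) and for 33 other immediate early genes with SE bars (right). On the left all points are black whatever their p, and only FOS (below 0) and FOSL2 (above 0) have an unadjusted p at or under 0.05. On the right orange points have an unadjusted p at or under 0.05, 15 genes below 0 and NR4A3 above 0, and the other points are white. No gene shown passed the adjustment over all genes.

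The question of whether the members moved together from pig to pig was addressed with Pearson correlations of log2 CPM over the 12 pigs. Of the 21 pairs of members, 2 had an r of at least 0.5, beside 7.21% of the 99806 pairs of a member with any tested gene. The median r of the 21 pairs was 0.157, beside 0.00460 over all those pairs, and 7 of the 21 were below 0. The 0 pairs with an adjusted p at or under 0.05 compare with 2 at an unadjusted p at or under 0.05, and over the whole family of 99806 pairs 0 passed, with 7494 at an unadjusted p at or under 0.05. The permutation test used 100000 resamples and could give no p below 1e-05, and the smallest adjusted p was 0.125. A single pair at that smallest p could not pass the adjustment over 99806 pairs. The 0 that passed was thus partly set by the number of resamples, and gives no evidence that correlations are absent.

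FOSB and MYC had the closest pair. Their r was 0.867 (permutation p = 0.00033, adjusted p = 0.393 over the 99806 pairs) and their Spearman rho 0.797 (permutation p = 0.00282, adjusted p = 0.504). Pig 6 was highest and pig 12 lowest for both genes. Without pigs 6 and 12, the pair of pigs farthest from the FOSB median, r was 0.676 (permutation p = 0.0319). It was 0.867 among high IMF pigs, 0.850 among low IMF pigs and 0.913 among the 6 pigs whose sex label matched. Only 0.0140% of genes had as high an r with FOSB, and 0.0491% with MYC.

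FOSL1 and MYC had an r of 0.644 (permutation p = 0.0387, adjusted p = 0.651) and a rho of 0.420 (permutation p = 0.178, adjusted p = 0.844). This relation rested on pig 6. Without it r was 0.233, and without pigs 6 and 7, the farthest from the FOSL1 median, it was 0.146.

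FOS gave r from 0.210 to 0.456 with FOSB, FOSL1, JUN, ATF3 and MYC, and none of these reached 0.5 with all 12 pigs. With FOSL2 its r was -0.40 over both groups, but -0.37 in the high IMF group, 0.47 in the low IMF group and 0.16 for deviations from the group means. The sign within the groups thus differed, and this difference was not tested. JUN had r between -0.152 and 0.397 with the other members, so that it followed none of them closely. ATF3 had its largest r, 0.415, with FOS.

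**Figure D3:**
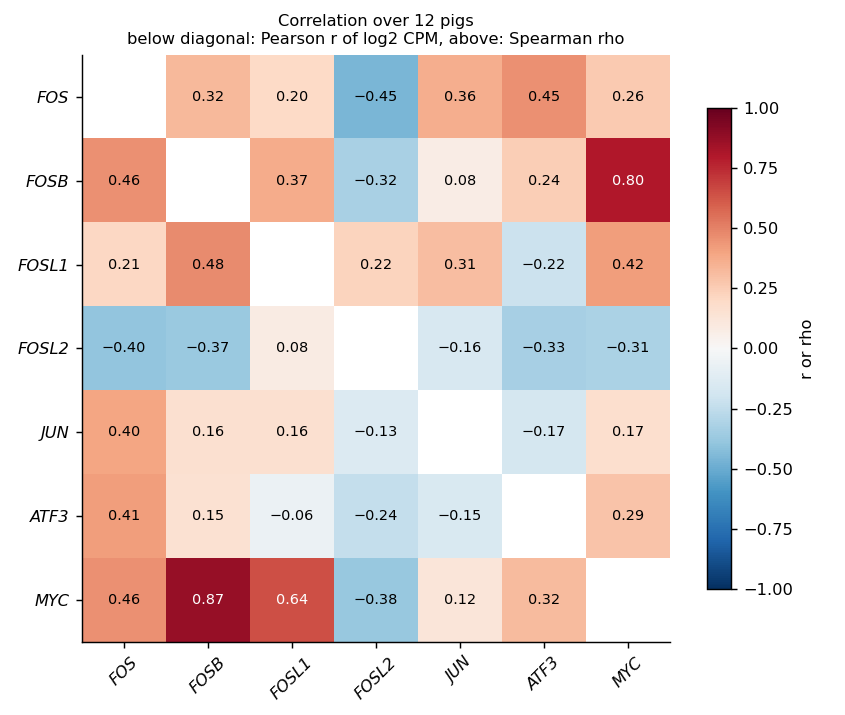
Correlation of each pair of members over 12 pigs, with Pearson r of log2 CPM below the diagonal and Spearman rho above it, coloured from blue (-1) to red (1). FOSB with MYC (r 0.867) and FOSL1 with MYC (r 0.644) are the 2 pairs of at least 0.5, and FOSL2 has r below 0 with each other member except FOSL1.

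**Figure D4:**
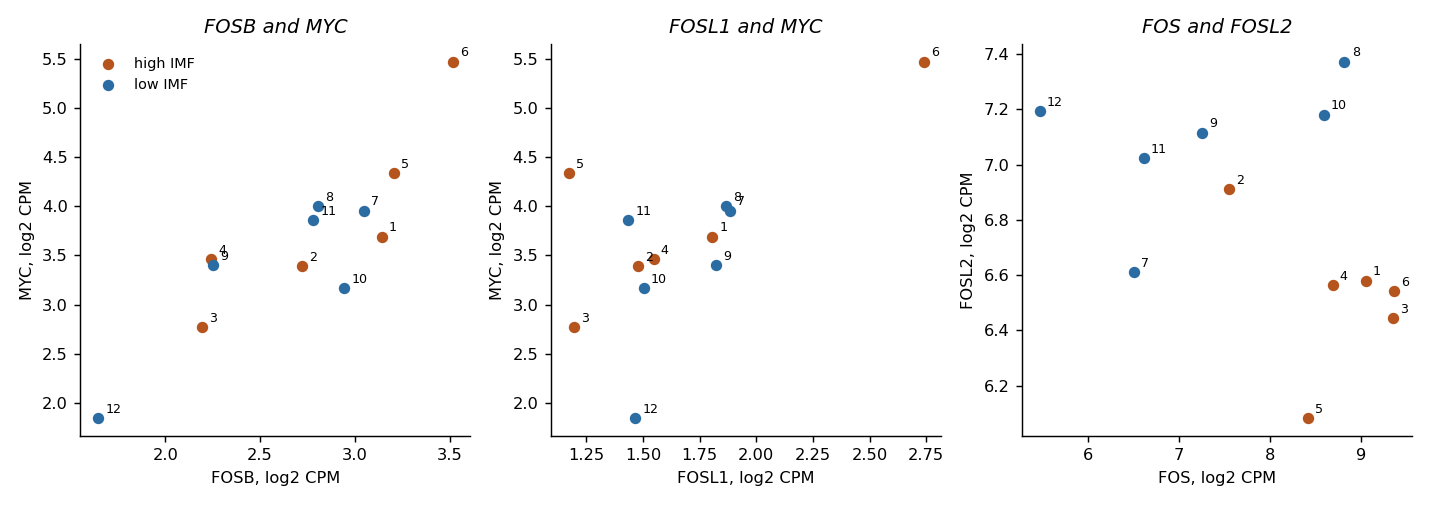
Log2 CPM of 3 pairs of members in each pig, on both axes, with high IMF pigs in orange and low IMF pigs in blue, numbered by pig. FOSB and MYC lie along a slope from pig 12 to pig 6, and the FOSL1 and MYC relation rests on pig 6. FOS and FOSL2 have no common slope within the groups, and high IMF pig 2 lies among the low IMF pigs.

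Genes nearest to a member, the pair with the highest r over the 12 pigs, were picked for that r and are given as a description. For FOS these were 2 other immediate early genes, IER5, with r 0.957 and rho 0.881, and ZFP36, which encodes an RNA-decay protein, with r 0.933 and rho 0.951. Without pigs 7 and 12, the pigs farthest from the FOS median, their r were 0.901 and 0.874. Both had the smallest p that the permutation test could give, and with it the smallest adjusted p of the family, 0.125. For MYC the nearest were GATM, an enzyme of creatine synthesis, with r 0.926 and rho 0.916, and EGR1, an immediate early zinc finger factor, with r 0.908 and rho 0.874. EGR1 had a log2FC of -1.57 ± 0.62, low over high IMF (adjusted p = 0.441, edgeR).

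For the other 5 members the nearest genes were not on the list of immediate early genes. FOSB was closest to the phosphatase gene PTPN1 (r 0.871) and to DDX47 (r 0.851), a gene of RNA processing. FOSL1 was closest to the kinase gene RPS6KA1 (r 0.918) and to URB2 (r 0.912), of which the first had an r of 0.682 without pigs 6 and 7. FOSL2 was closest to CNOT3 (r 0.903), a subunit of the CCR4-NOT deadenylase, and to UBN1 (r 0.893), a histone chaperone subunit. JUN was closest to MAGIX (r 0.882) and BROX (r 0.834), and ATF3 to ENOPH1 (r 0.909), an enzyme of methionine salvage, and KBTBD12 (r 0.880).

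The members were set beside other immediate early genes, a list of 36 symbols of which 33 were tested. With edgeR, 0 passed the adjustment, but 15 had an unadjusted p at or under 0.05 with the higher level in the high IMF group, beside 719 of 14262 genes tested (5.04%). A single gene, NR4A3, was on the other side, beside 5.38% of all genes. The median log2FC of the 33 was -0.58, beside -0.01 for all genes. Without pig 6 the count was 12 of 33, beside 3.34% of genes, and without the 6 pigs of unmatched sex label it was 12 of 33, beside 2.19%. FOS had the direction of these 15 genes and FOSL2 that of NR4A3, and no test of their likeness was made.

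The 4 genes of this list with the smallest p were CCN1, DUSP6, ARC and EGR2. CCN1, a secreted matrix protein gene, had 46.4 ± 14.2 CPM in the high and 20.9 ± 9.13 CPM in the low IMF group (SD, n = 6 each), a log2FC of -1.15 ± 0.27 with an adjusted p of 0.280 in edgeR and 0.0107 in DESeq2's Wald test. It followed FOS over the pigs with an r of 0.908. DUSP6, a phosphatase that inactivates ERK, had 11.7 ± 4.02 CPM and 7.15 ± 1.42 CPM in the same order (adjusted p = 0.367, edgeR). ARC had 7.91 ± 11.6 CPM and 0.918 ± 0.408 CPM (adjusted p = 0.367, edgeR), with high IMF pigs from 0.372 to 30.5 CPM, and DESeq2's Wald test gave 0.0497, so that CCN1 and ARC were the 2 genes of the list that this test called with all 12 pigs. Without 1 pig it called from 1 to 7 genes of the list, the most without pig 2 and 6 without pig 3. CCN1 was called in all 12 of these fits and alone in 7, and ARC only in those without pig 1, 2 or 3. The zinc finger factor EGR2 had 4.08 ± 2.47 CPM and 2.01 ± 0.557 CPM (adjusted p = 0.420, edgeR). NR4A3, an orphan nuclear receptor gene that was singled out after its values were seen, had means of 104 and 225 CPM (adjusted p = 0.427, edgeR) and an r of -0.80 with FOS.

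Members differed in how many of these 33 genes followed them over the pigs. With FOSB, 19 of the 33 had an r of at least 0.5, beside 5.29% of all genes, and with MYC 18 of the 33, beside 7.49%. FOS and FOSL1 each had 13, beside 8.95% and 7.86% of all genes. ATF3 had 5, FOSL2 2 and JUN 1, beside 7.33%, 10.2% and 3.35%. FOSL2 had 6 of the 33 at an r of -0.5 or less, beside 9.23% of all genes.

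Genes known as AP-1 targets, 21 tested of 26, had 0 that passed the adjustment in edgeR and 7 at an unadjusted p at or under 0.05, all higher in the high IMF group, beside 5.04% of all genes. The median log2FC of the 21 was -0.40. Without pig 6 there were 3 of 21, beside 3.34%, and the median was -0.09. Without pig 3 or pig 4 there were 10 of 22, and the share of all genes was not taken for these fits. With limma-voom there was 1 of 21, beside 4.53%, with a median of -0.26, and with labelled age as a covariate there were 3, beside 4.8%. Without the 6 pigs of unmatched sex label there were 5 of 23, beside 2.19%, with a median of -0.85. DESeq2's Wald test on the same 14262 genes called 1 of the 21, IL6 (adjusted p = 0.0486), and on all genes with a count 0, with an adjusted p of 0.0519 for IL6. The 4 with the smallest p were the cytokine genes CXCL8 and IL6, the growth factor gene AREG and the cyclooxygenase gene PTGS2. CXCL8 had 4.17 ± 9.48 CPM in the high and 0.119 ± 0.0746 CPM in the low IMF group (SD, n = 6 each). High IMF pigs ran from 0.127 to 23.5 CPM for CXCL8, against at most 0.212 CPM in the low IMF pigs. IL6 had 7.02 ± 13.6 and 0.426 ± 0.382 CPM, and ran from 0.241 to 34.4 CPM, against 0.0738 to 1.14 CPM. For both genes the highest pig held most of the summed CPM of the high IMF group. DESeq2's Wald test gave no adjusted p for CXCL8. AREG had 1.95 ± 0.974 CPM and 0.899 ± 0.344 CPM, and PTGS2 2.26 ± 2.49 CPM and 0.486 ± 0.311 CPM (SD, n = 6 each). Their adjusted p in edgeR lay between 0.367 and 0.427. FOSL1 had an r of at least 0.5 with 12 of the 21, beside 7.86% of all genes. For FOSB and MYC it was 11 each, beside 5.29% and 7.49%, and for FOS 7, beside 8.95%. FOSL2, JUN and ATF3 had 0, beside 10.2%, 3.35% and 7.33%. Pig 6 had the most FOSL1, FOSB and MYC, and these counts were not taken without it.

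Of the further AP-1 and related leucine zipper factors, 24 of 30 were tested, 0 passed with edgeR, and 1 was higher in the high and 2 in the low IMF group at an unadjusted p at or under 0.05, beside 5.04% and 5.38% of all genes, with a median log2FC of -0.02. Both counts were 0 and the median -0.05 without the 6 pigs of unmatched sex label. NFE2L1 had 201 ± 37.2 CPM in the high and 260.2 ± 42.6 CPM in the low IMF group, NFIL3 27.3 ± 19.2 and 13.1 ± 3.51 CPM, MAFG 3.65 ± 0.709 and 4.84 ± 1.05 CPM, and CREB5 5.71 ± 2.14 and 4.26 ± 0.893 CPM (SD, n = 6 each). Of the kinases and regulators upstream of AP-1, 34 of 35 were tested, 0 passed with edgeR, and 0 and 5 were higher in the high and the low IMF group at an unadjusted p at or under 0.05, beside 5.04% and 5.38%, with a median log2FC of 0.09. Without the 6 pigs of unmatched sex label both counts were 0 and the median was -0.01, and without 1 pig the count on the low IMF side ran from 3, without pig 3 or pig 5, to 8 without pig 12. Among the 34, the ERK1 gene MAPK3 had 17.1 ± 1.74 and 22.0 ± 2.49 CPM, GSK3A 12.3 ± 1.14 and 15.0 ± 1.16 CPM, the CREB coactivator gene CRTC2 2.88 ± 0.631 and 3.88 ± 0.595 CPM, and RPS6KA4 2.79 ± 0.451 and 3.51 ± 0.522 CPM in the same order. MAPK3, with an adjusted p of 0.367 in edgeR and 0.0769 in DESeq2's Wald test, had an r of -0.70 with FOS.

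Of the stress response partners and targets of ATF3, 21 of 23 were tested, 0 passed with edgeR, and 1 was on either side at an unadjusted p at or under 0.05, beside 5.04% and 5.38% of all genes, with a median log2FC of -0.06. These were the heat shock cochaperone gene DNAJB1, with 112 ± 59.0 CPM in the high and 37.0 ± 13.2 CPM in the low IMF group, and CEBPB, a leucine zipper factor that pairs with ATF3, with 43.7 ± 7.01 and 77.8 ± 24.1 CPM (SD, n = 6 each). Both passed in DESeq2's Wald test, with adjusted p of 0.00133 and 0.00805, beside 0.205 and 0.229 in edgeR. The list had 1 and 3 genes on the high and the low IMF side without the 6 pigs of unmatched sex label, beside 2.19% and 1.86%, and a median of -0.12. No CEBPB value of a low IMF pig lay below 58.8 CPM and none of a high IMF pig above 51.2 CPM. GADD45G had 16.7 ± 8.51 and 11.3 ± 2.95 CPM and TRIB3 1.74 ± 0.838 and 1.10 ± 0.488 CPM. The r of DNAJB1 and CEBPB with ATF3 were 0.00 and -0.29, while with FOS they were 0.61 and -0.68.

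Among MYC partners and antagonists, 16 of 19 were tested, 0 passed with edgeR, and 0 and 2 were higher in the high and the low IMF group at an unadjusted p at or under 0.05, beside 5.04% and 5.38% of all genes, with a median log2FC of 0.01. MAX, the obligate partner of MYC, had 54.2 ± 8.93 CPM in the high and 73.7 ± 17.7 CPM in the low IMF group (adjusted p = 0.427, edgeR). MLXIP had 95.4 ± 29.1 and 155 ± 35.3 CPM, MXD4 1.34 ± 0.383 and 1.67 ± 0.144 CPM, and TRRAP 18.8 ± 5.28 and 22.3 ± 3.95 CPM. Both counts were 0 and the median was -0.04 without the 6 pigs of unmatched sex label. Of the genes known as MYC targets, 26 of 27 were tested and 0 passed with edgeR. At an unadjusted p at or under 0.05, 2 and 0 were on the high and the low IMF side, beside 5.04% and 5.38% of all genes. The median log2FC of the 26 was -0.13. The 2 became 0 without pig 6, without pig 12 and without the 6 pigs of unmatched sex label, the last with a median of -0.11. Without pig 12, 2 genes were on the low IMF side instead. The nucleolar genes NOP58 and GNL3 had 45.3 ± 6.21 and 38.5 ± 1.14 CPM, and 30.9 ± 6.38 and 25.2 ± 1.95 CPM, NME1 had 3.71 ± 1.57 and 2.73 ± 0.196 CPM, and SHMT1 4.23 ± 0.982 and 5.42 ± 1.07 CPM (SD, n = 6 each). MYC had an r of at least 0.5 with 10 of the 26 targets and with 0 of the 16 partners, beside 7.49% of all genes. Pig 6 had the most MYC, and these counts were not taken without it.

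The summed CPM of marker lists of 11 cell types overlapped between the groups in every list, with exact permutation p from 0.141 to 0.909. Some lists stood beside single members, and those given here were picked after the values of all 11 lists and 7 members were seen. In pig 6, which had the most FOSL1, FOSB and MYC and, just above pig 3, the most FOS, red blood cell markers (4 of 7 counted, with HBA, HBA1 and HBA2 not counted) summed to 628 CPM, against 41.2 to 122 CPM in the other pigs. Neutrophil and granulocyte markers (4 of 7 counted, with S100A9, CXCR2 and MPO not counted) summed to 6.60 CPM in pig 6 and to between 0.172 and 1.44 CPM elsewhere, and macrophage markers (10 of 10) to 189 CPM and to between 81.9 and 163 CPM. The part of these cells in the FOSL1, FOSB, MYC and FOS values was not tested. For FOS, the 4 pigs with the lowest levels, pigs 7, 9, 11 and 12, had the highest sums of endothelium markers (6 of 8 counted, with VWF and CLDN5 not counted), 175, 153, 151 and 158 CPM, against 105 to 140.4 CPM in the other pigs. The part of endothelium in the FOS values was not tested. Adipocyte markers (7 of 8 counted) summed to between 61.5 and 137 CPM in the high and between 36.7 and 162 CPM in the low IMF group.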

How the data were processed

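Stranded polyadenylated RNA libraries were trimmed with Trimmomatic, aligned to the pig genome Sscrofa11.1 with HISAT2, assembled with StringTie and counted with HTSeq, per the labels and the study's methods. The authors deposited whole-number counts per Ensembl gene and pig, not normalized. The annotation release and the treatment of reads with several alignments are not given in the sources used here. The counts of the 12 pigs summed to more than the reads the study kept, so that a read may be counted more than once.

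Genes kept by filterByExpr (14262) were scaled by TMM and tested with edgeR 4.0.16 (quasi-likelihood, group as the only term, Benjamini-Hochberg adjustment over all genes tested, R 4.3.3). Called genes met both limits of the study, 0.05 for the adjusted p and 0.58 for the size of the log2FC. Log2 CPM used a prior count of 2. Single genes were also compared by an exact two-sided permutation test over pigs, and correlations with 100000 resamples (numpy 2.4.6). DESeq2 1.42.0 and limma-voom (limma 3.58.1), other filters and scalings, labelled sex or age as a covariate and pigs left out were alternatives. The tests were tried on simulated data. Positions and sequences are from RefSeq on Sscrofa11.1, matched by symbol.

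The named genes are the members, the 2 genes of highest r with each member, and the 4 genes of smallest p in each gene list. Members and lists were chosen with earlier results of these data known. Other choices made after the values were seen are named as such. With 6 pigs a group, the precision is set by the spread between pigs and not by depth.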

Additional observations from a re-analysis of the deposited data

Results flagged for a closer look

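The high IMF group held a single high pig for FOSL1 and for MYC, and it was pig 6 in both cases. FOSL1 was 6.66 CPM in pig 6 and at most 3.48 CPM in the other 5 pigs, and the gap was 0.719 of the group's whole range and beyond Dixon's limit for 6 samples. MYC was 44.3 CPM in pig 6 and at most 20.2 CPM in the others, with a gap of 0.644 of the range. Of 14 groups looked at, 7 members in each of 2 groups, these 2 passed the limit. For normally distributed values, chance alone flags about 1 in 20 groups, and whether CPM are so distributed was not tested. The gaps were taken on CPM and not on log2 CPM, so that the flags hold for the CPM scale alone. The FOSL1 and MYC values come from the same library, so that they do not count as separate events.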

How the results depend on the processing

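The log2FC of FOS, FOSB, FOSL2, JUN, ATF3 and MYC kept their sign under every alternative run. That of FOSL1 turned to 0.0025 with limma-voom and ran from -0.19 to 0.22 over fits without 1 pig, positive without pig 6 alone, and in DESeq2's Wald test from -0.18 to 0.22. For the edgeR fits the members called stayed at 0 under all alternatives. The genes called in all went from 0 to 59 in DESeq2's Wald test on the same genes and to 65 on all genes with a count, and to 0 or 1 without 1 pig. Without 1 pig, a choice made after the values were seen, that DESeq2 test called from 43 to 183 genes and 0 or 1 members, the 1 being FOSL2, with a log2FC from 0.49 to 0.65. The cause was not tested. The 15 other immediate early genes at an unadjusted p of 0.05 were from 12 to 16 under the alternatives, which were chosen after the values were seen.

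The count of 2 member pairs with an r of at least 0.5 was 1 with Spearman's rho, 4 in the high IMF pigs, 7 in the low IMF pigs, 9 without the pigs of unmatched sex label and from 1 to 5 without 1 pig, while other scalings, deviations from the group means and leaving out the 2 farthest pigs gave 2 or 3. Weak correlations changed sign in small sets of pigs. In the high IMF pigs alone r was -0.69 for FOSB and JUN, -0.15 for FOSL1 and JUN, 0.69 for FOSL2 and JUN and -0.73 for JUN and MYC. In the low IMF pigs alone it was 0.47 for FOS and FOSL2, -0.23 for FOSL1 and FOSL2 and 0.86 for FOSL2 and ATF3. For deviations from the group means it was 0.16 for FOS and FOSL2 and 0.12 for FOSL2 and JUN. Without the pigs of unmatched sex label it was -0.62 for FOSL1 and FOSL2 and 0.57 for FOSL1 and ATF3, and without the 2 farthest pigs -0.18 for FOSB and ATF3. Over fits without 1 pig, r ran from -0.13 to 0.37 for FOS and FOSL1, from -0.039 to 0.38 for FOSB and ATF3, from -0.17 to 0.45 for FOSL1 and FOSL2, from -0.68 to 0.16 for FOSL1 and ATF3, from -0.435 to 0.0889 for FOSL2 and ATF3 and from -0.0176 to 0.21 for JUN and MYC. No paired analysis was made, because the replicate numbers only count the pigs within each group and the study chose unrelated pigs.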
